A study of Mus musculus with 6 samples.

Results

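The stefins and cystatins, a family of small inhibitors of cysteine proteases, were followed in gene arrays of primary mouse osteoblasts (PMOs). The 9 genes described are Stfa1, Stfa2, Stfa3, Stfa2l1 and Cstdc4 of the stefin A group, Cstb (stefin B), and the secreted cystatins Cst3, Cst6 and Cst7. They were taken by name from the 20659 named genes on the array, and each had 1 probe. Stfa1 and Cstdc4 had been picked because their signal was lost upon differentiation in these same arrays, so the values of the 9 genes in that comparison are given as a description without a test.

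The study compared PMOs from the calvaria of CD1 newborn mice 2 to 5 days old in 3 conditions, with 2 arrays each. Undifferentiated PMOs were grown to confluence in medium with serum. Differentiated PMOs were kept for 30 days after confluence in differentiation medium, and cabozantinib PMOs for 30 days in the same medium with cabozantinib (XL184), a tyrosine kinase inhibitor of VEGFR2 and MET. The arrays asked which transcripts change with osteoblast differentiation and with cabozantinib. All 3 conditions are calvarial cell cultures, which can hold cells other than osteoblasts. The labels do not say whether the 2 arrays of a condition came from separate cultures or litters, so the p values measure only the spread between these arrays, which may be technical.

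Cystatins bind reversibly in the active site cleft of papain-like cysteine proteases such as cathepsins B, H, L, K and S. The stefins lack a signal peptide and work inside the cell, whereas the cystatins are secreted and act outside the cell or in the endolysosomal compartment. In bone, cathepsin K made by osteoclasts degrades collagen, and cystatin C is known as an inhibitor of this resorption. Mouse stefin A genes form a cluster of close copies that is known to be expressed in neutrophils and their precursors and in epidermis.

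The array signals are background-subtracted intensities in arbitrary units, and the log2 values below are relative to the 75th percentile of each array, which was between 624.6 and 1772.8. The scanner software called from 58.8% to 72.9% of spots well above background, and no spot was saturated. For differentiated PMOs the share was 64.8% and 67.4%, and for cabozantinib PMOs 58.9% and 58.8%. The undifferentiated and differentiated arrays shared 1 scan and the cabozantinib arrays were in another, so that scan and cabozantinib cannot be told apart. The median over 16137 genes was 0.12 higher in differentiated than in undifferentiated PMOs on the log2 scale, and 0.21 lower in cabozantinib than in differentiated PMOs, where quantile normalization gave 0.04 lower. Col1a1, Col1a2 and Alpl, which mark osteoblasts, were well above background on all 6 arrays. The osteoblast transcription factors Runx2 and Sp7 were well above background on 3 and 4 arrays. By condition these were 2 undifferentiated, 0 differentiated and 1 cabozantinib array for Runx2, and 2, 1 and 1 for Sp7.

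The sequence upstream of the stefin A genes is shown because 7 genes of this cluster that could be measured were lower in both differentiated arrays than in both undifferentiated arrays, as described below. In the RefSeq gene order, the cluster on chromosome 16 runs Csta1, Stfa2l1, Cstdc4, Csta3, Csta2, Stfa1, Cstdc3, Cstdc6, Cstdc5, Stfa2 and Stfa3, with Gm7260 between Cstdc5 and Stfa2. For 6 of these genes the 120 bases before the start site (RefSeq, GRCm38.p6) are given, with capitals for every run of 8 or more letters that all 6 hold.
Stfa2l1, chr16:36156691-36156810, plus strand: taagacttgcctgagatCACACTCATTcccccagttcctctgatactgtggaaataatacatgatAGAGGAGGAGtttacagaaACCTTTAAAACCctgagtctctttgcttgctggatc
Cstdc4, chr16:36184092-36184211, plus strand: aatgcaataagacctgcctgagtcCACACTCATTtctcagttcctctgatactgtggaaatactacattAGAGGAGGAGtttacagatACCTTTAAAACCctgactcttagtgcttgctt
Stfa1, chr16:36277028-36277147, plus strand: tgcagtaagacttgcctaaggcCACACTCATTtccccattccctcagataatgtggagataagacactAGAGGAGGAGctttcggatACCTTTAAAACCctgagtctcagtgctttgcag
Cstdc5, chr16:36367571-36367690, minus strand: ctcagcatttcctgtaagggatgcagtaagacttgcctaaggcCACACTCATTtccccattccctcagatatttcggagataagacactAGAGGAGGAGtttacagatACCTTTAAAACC
Stfa2, chr16:36408364-36408483, minus strand: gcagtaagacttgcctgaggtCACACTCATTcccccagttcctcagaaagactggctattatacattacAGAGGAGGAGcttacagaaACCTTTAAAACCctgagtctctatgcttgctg
Stfa3, chr16:36455393-36455512, minus strand: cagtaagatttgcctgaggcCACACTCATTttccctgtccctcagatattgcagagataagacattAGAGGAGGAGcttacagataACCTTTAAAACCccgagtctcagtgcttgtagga

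All 6 windows held CACACTCATT, AGAGGAGGAG and ACCTTTAAAACC, in this order. The runs were found after the sequences had been seen and were defined as what these 6 windows share, so their presence in all 6 was set in advance. When both strands were searched, CACACTCATT was in 14 of the 32851 RefSeq promoter windows of this length (0.0426%), AGAGGAGGAG in 143 (0.435%) and ACCTTTAAAACC in 10 (0.0304%). Each count includes the 6 windows themselves. Whether genes of the cluster that are not shown hold the runs was not examined. ACCTTTAAAACC began between 12 and 36 bases before the start site and contains TTTAAA, which 5.2% of all windows held, whereas TATAAA (6.34% of all windows) was in 0 of the 6. Over the 15 pairs of the 6 windows, the identity after global alignment was 54.8% to 84.6%, with a median of 78.2%. The windows of Csta2, which lies within the cluster and was also lower in differentiated PMOs, and of Cst3 on chromosome 2 are shown beside them.
Csta2, chr16:36221442-36221561, plus strand: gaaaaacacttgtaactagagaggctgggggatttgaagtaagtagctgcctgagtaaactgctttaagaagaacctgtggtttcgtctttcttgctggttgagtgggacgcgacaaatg
Cst3, chr2:148875513-148875632, minus strand: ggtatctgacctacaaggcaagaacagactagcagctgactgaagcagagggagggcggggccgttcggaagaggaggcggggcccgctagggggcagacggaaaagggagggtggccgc
None of the 3 shared runs was in either window, and their identity with the 6 was 43.8% to 50% for Csta2 and 43.5% to 45.8% for Cst3. These matches describe the letters only. The stefin A transcripts are also close copies of each other, and cross-hybridization between their probes was not tested.

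Stfa1, a stefin A inhibitor of cathepsins, had a strong signal in undifferentiated PMOs and none above background in the other conditions. Its signal before scaling was 2581.8 and 2976.9 in undifferentiated, 5.3 and 6.0 in differentiated, and 6.2 and 4.7 in cabozantinib PMOs. On the log2 scale these were 2.05 and 0.75, then -7.68 and -6.75, then -7.68 and -7.66. The 2 undifferentiated arrays lay far above the other 4, and the probe was well above background on these 2 arrays only. The difference was at least 159-fold for differentiated and at least 117-fold for cabozantinib PMOs against undifferentiated PMOs. Such a lower limit sets the mean of the bright arrays against, on each dim array, the lowest signal that was well above background or the probe's own signal where that is higher.

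Cstdc4, a cystatin domain gene next to Stfa2l1 in the cluster, had the same layout of high and low arrays. The signals before scaling were 297.8 and 1052.5 in undifferentiated, 5.4 and 3.3 in differentiated, and 6.5 and 5.1 in cabozantinib PMOs. The corresponding log2 values were -1.07 and -0.75, -7.65 and -7.63, and -7.62 and -7.55. Again no array of the later conditions was well above background, and the lower limit was 32.0-fold for differentiated and 23.7-fold for cabozantinib PMOs.

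Stfa2l1, a gene named for its likeness to Stfa2, was well above background in undifferentiated PMOs alone, at log2 values of -1.62 and -1.17. It stood at -5.56 and -5.57 in differentiated and at -7.56 and -6.85 in cabozantinib PMOs. The undifferentiated arrays did not overlap the others, and the lower limits were 18.1-fold and 16.9-fold. Stfa1, Cstdc4 and Stfa2l1 thus entered the analysis, which required 2 arrays well above background, only through the undifferentiated arrays. Of all 16137 genes, 125 were likewise detected on the 2 undifferentiated arrays and nowhere else (0.775%).

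Stfa3 and Stfa2, intracellular cathepsin inhibitors of the same cluster, kept a measurable signal in differentiated PMOs. Stfa3 had log2 values of 0.43 and -0.21 in undifferentiated, -5.03 and -4.89 in differentiated, and -5.58 and -5.29 in cabozantinib PMOs, and was not well above background on the last 2 arrays. It was 33.6-fold lower in differentiated than in undifferentiated PMOs, a log2 difference of -5.07. Stfa2 had log2 values of 0.91 and -0.33, -1.39 and -1.52, and -1.88 and -1.42, and was well above background on all 6 arrays. Its log2 difference between differentiated and undifferentiated PMOs was -1.74 (3.35-fold lower), next to a replicate difference of over 1 between the undifferentiated arrays. For both genes the undifferentiated arrays lay above the other 4. Less RNA per cell and fewer cells of a type that makes it cannot be told apart in these bulk arrays.

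The remaining 4 genes did not share this loss. Cstb, the stefin found in most cell types, had log2 values of 4.31 and 4.64 in undifferentiated, 4.66 and 4.18 in differentiated, and 4.41 and 4.42 in cabozantinib PMOs, so the 3 conditions overlapped. The log2 difference between differentiated and undifferentiated PMOs was -0.06. Cst3, which encodes the secreted inhibitor cystatin C, had log2 values of 5.10 and 4.96, 6.02 and 6.25, and 6.40 and 6.39. Both differentiated arrays were above both undifferentiated arrays, by 1.11 on the log2 scale (2.16-fold), and the cabozantinib arrays were above the undifferentiated arrays by 1.37 (2.58-fold).

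Cst6, or cystatin E/M, which inhibits legumain as well as cathepsins, had log2 values of -0.47 and -1.01 in undifferentiated, -1.60 and -0.72 in differentiated, and -2.30 and -2.12 in cabozantinib PMOs. The undifferentiated and differentiated arrays overlapped, with a log2 difference of -0.42. Cst7, or cystatin F, an inhibitor made by leukocytes that controls cathepsin C, was near background, with log2 values of -4.76 and -4.90, -5.13 and -4.70, and -5.98 and -5.44. It was well above background on 1 undifferentiated array, both differentiated arrays and no cabozantinib array. In all, 5 of the 9 genes were lower in both differentiated arrays than in both undifferentiated arrays, 1 was higher, and 3 overlapped. Over all genes 20.1% were lower and 27.9% higher in this way, but since the genes were picked on this comparison nothing is read from their count.

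**Figure D1:**
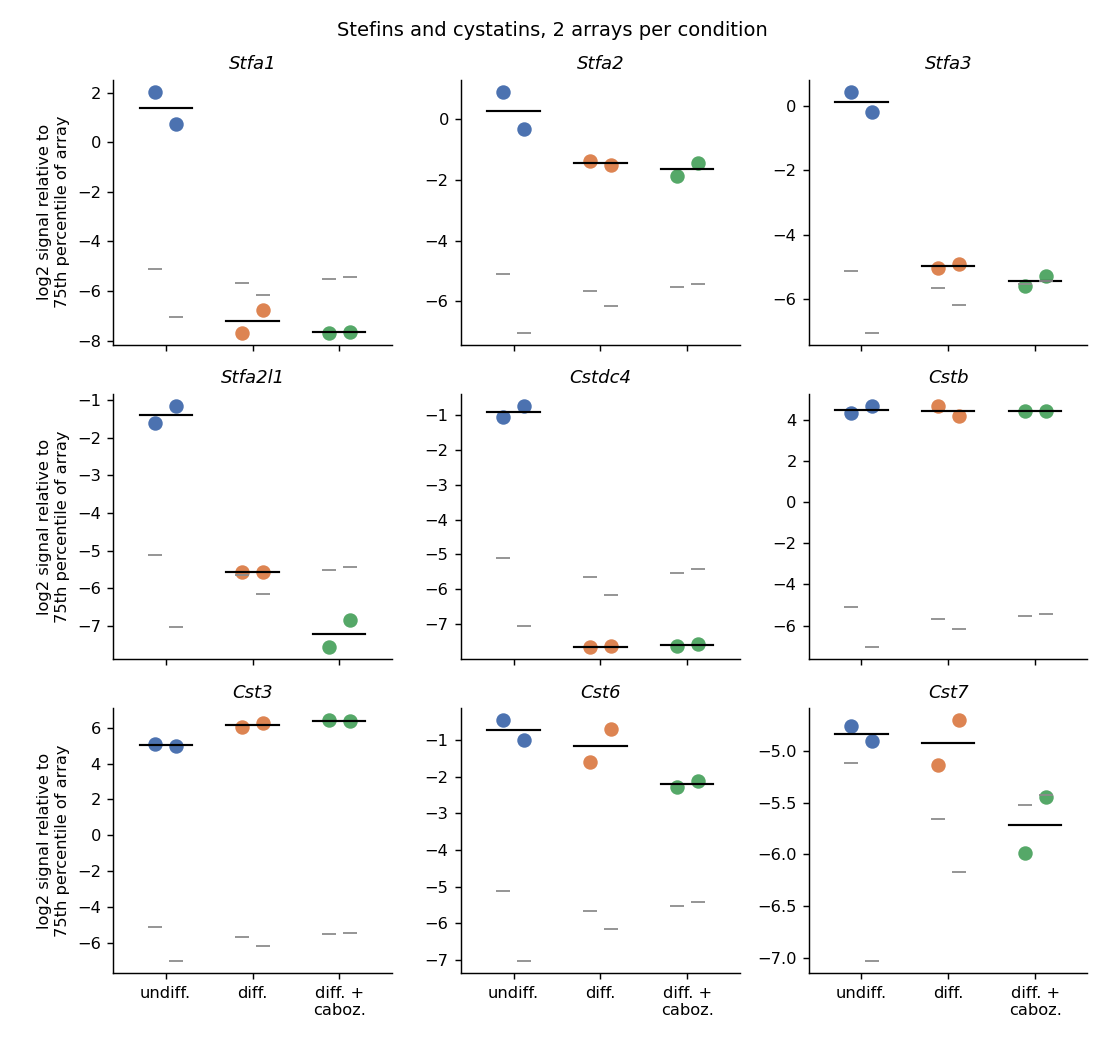
Log2 signal of the 9 stefin and cystatin genes relative to the 75th percentile of each array (vertical axis, own scale in each panel) for undifferentiated, differentiated and cabozantinib-treated PMOs. Points are the 2 arrays of a condition, black bars are their mean, and grey ticks mark the lowest signal that was well above background on that array. Stfa1 and Cstdc4 lie below the ticks on all 4 arrays after differentiation, whereas Cstb stays between 4.18 and 4.66.

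Cabozantinib PMOs were compared with differentiated PMOs by limma across all genes, with the differentiated arrays shared with the comparison above. None of the 9 genes passed an adjusted p of 0.05, and 1 of them, Stfa2l1, had an unadjusted p under 0.05. Of all 16132 genes, 3158 had an unadjusted p under 0.05 by limma. The paired test named in the methods, and an unpaired test run beside it, called 0 after adjustment, but they called 0 of all genes. In this comparison 351 of 16132 genes passed (2.18%), of which 328 were lower with cabozantinib. Stfa1, Cstdc4 and Stfa2l1 were not well above background in either condition, so no fold is given. For Stfa2l1 the adjusted p was 0.0856, and 0.0390 when the replicate number was left out of the model, but this compares signals at background.

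Among the genes measured in both conditions, Cst6 had the largest difference, at -1.05 on the log2 scale (2.07-fold lower, SE = 0.53, adjusted p = 0.281 by limma). Both cabozantinib arrays were below both differentiated arrays, and the 95% interval ran from -2.24 to 0.14. The difference was negative in all 18 settings tried, from -1.58 to -0.51, of which 1 gave an adjusted p under 0.05. Cst3 was 0.26 higher (SE = 0.48), with an interval of -0.82 to 1.34 and a limma adjusted p of 0.872, and both cabozantinib arrays were above both differentiated arrays. Stfa2 differed by -0.20 (SE = 0.55), with an interval of -1.44 to 1.04 and a limma adjusted p of 0.929. Cstb differed by less than 0.01 (SE = 0.50), with an interval of -1.12 to 1.11.

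Stfa3 and Cst7 were well above background in differentiated but not in cabozantinib PMOs. The lower limit of the difference was 1.36-fold for Stfa3 (limma adjusted p = 0.709) and 1.47-fold for Cst7 (limma adjusted p = 0.402). Cst7 would not have been tested without the differentiated arrays, on which it was higher than with cabozantinib. In all, 4 of the 9 genes were lower in both cabozantinib arrays, where 38.9% of all genes were, and 2 were higher, where 15.2% of all genes were. Stfa2l1 among the lower and Cstdc4 among the higher genes were not well above background in either condition, so their order gives no direction. The median log2 difference of the 9 was -0.45 beside -0.21 over all genes. With quantile normalization 5 of the 9 differences were positive in place of 2, so no common direction is given.

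The neighbors of the stefin genes that were not used to choose them were read from the same fit. Cstdc5, a cystatin domain gene of the cluster, had log2 values of 1.77 and 1.10 in undifferentiated, -5.91 and -4.45 in differentiated, and -6.83 and -6.83 in cabozantinib PMOs. The probe was called above background for both undifferentiated samples, 1 of the 2 differentiated samples and no cabozantinib sample, so it was tested only because of the undifferentiated arrays. The log2 difference with differentiation was -6.62 (SE = 0.59, limma adjusted p = 0.000328), which rests in part on a signal at background. Since the filter favored this direction for Cstdc5, its call supports nothing. Csta2, another stefin A gene, had log2 values of 0.92 and 0.19, -2.31 and -1.67, and -3.63 and -3.33. It fell by 2.54 (5.83-fold, SE = 0.53, limma adjusted p = 0.0146) and was called in 16 of 18 settings. For both genes the undifferentiated arrays stood above the other 4 without overlap. Of the 16133 genes tested for this comparison, 10.7% changed, 4.36% downward.

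With cabozantinib, Csta2 differed from differentiated PMOs by -1.49 (limma adjusted p = 0.128), and Cstdc5 was lower by at least 1.23-fold (limma adjusted p = 0.131). In all, 10 of the 12 protein-coding genes from Csta1 to Stfa3 had a probe among the genes listed, and 7 of these had 2 or more arrays well above background. All 7 were lower in both differentiated than in both undifferentiated arrays, against 20.1% of all genes, but 5 of them are the genes chosen. Stfa1, Cstdc4, Stfa2l1 and Cstdc5 would not have been tested without the undifferentiated arrays. Csta1, Csta3 and Cstdc6 were well above background on 0, 1 and 1 of the 6 arrays and were not tested.

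**Figure D2:**
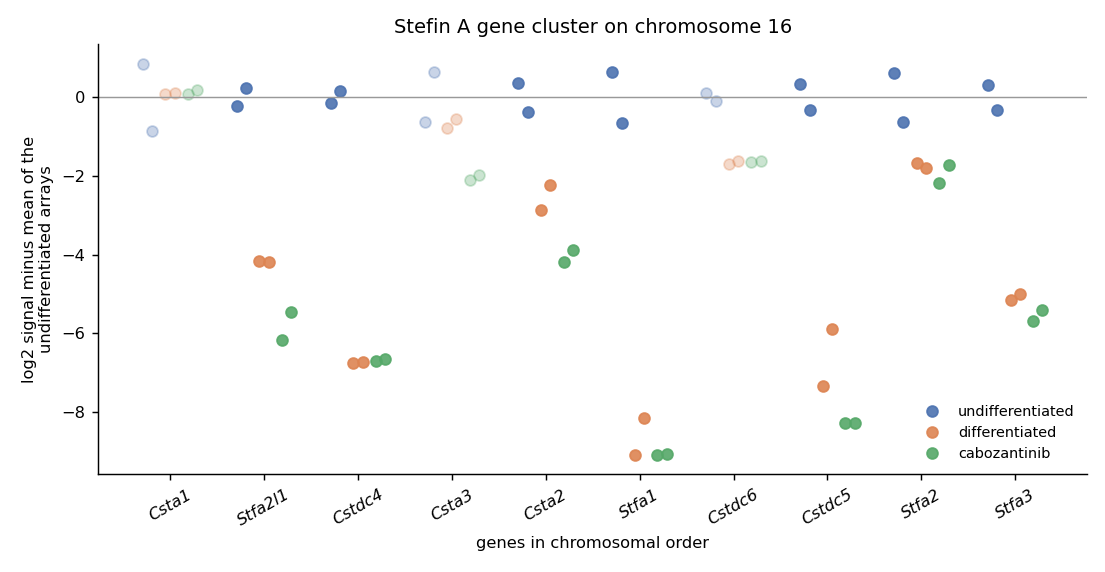
Log2 signal minus the mean of the undifferentiated arrays (vertical axis) for 10 genes of the stefin A cluster in chromosomal order (horizontal axis), with 1 point per array. Pale points mark Csta1, Csta3 and Cstdc6, which were not tested. The differentiated and cabozantinib arrays of the 7 other genes lie below both undifferentiated arrays, from Stfa2 with a difference of -1.74 to Stfa1.

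The wider cystatin superfamily was followed in a list of 23 further genes, of which 22 had a probe and 17 were tested. With differentiation, 5 of the 17 passed the test upward and 2 (Cstdc5 and Csta2) downward, beside 6.31% and 4.36% of all genes. Kng2 and Cstdc5 would not have been tested without the arrays on which they were high, so their calls support nothing. The count that rose was 2 with quantile normalization. The 5 were the fetuin and kininogen genes Ahsg, Fetub, Kng1 and Kng2, which lie next to each other with Hrg on chromosome 16 and are best known from liver, and Rarres1, a membrane protein related to latexin.

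Ahsg encodes fetuin-A, a plasma protein that binds calcium phosphate and accumulates in bone mineral. Its log2 values were -6.07 and -6.80 in undifferentiated, -0.52 and 0.61 in differentiated, and -3.95 and -3.25 in cabozantinib PMOs. The 3 conditions did not overlap, with the differentiated arrays the highest and the undifferentiated arrays not above background. Ahsg rose by at least 64.2-fold with differentiation (limma adjusted p = 0.000328). With cabozantinib it fell by 3.65 from differentiated PMOs on the log2 scale (12.5-fold, SE = 0.57, limma adjusted p = 0.0474). The latter call was made in 10 of 17 settings and was lost with quantile normalization, where the log2 difference was -3.26 and no gene of the whole array passed.

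Kng1, which encodes a kininogen with cystatin domains, had log2 values of -1.20 and -2.67, 1.10 and 2.85, and 0.01 and 0.70. It rose by 3.91 with differentiation (15.0-fold, SE = 0.71, limma adjusted p = 0.00764), and differed by -1.62 with cabozantinib (limma adjusted p = 0.209). A dimmer probe of Kng1 did not follow, with a log2 difference of 0.62 between differentiated and undifferentiated PMOs (limma adjusted p = 0.658). Kng2 was well above background on the differentiated arrays alone and entered only through them, so that it had to be higher there and its calls support nothing. The lower limits of its differences from undifferentiated and cabozantinib PMOs were 2.98-fold and 1.97-fold.

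Fetub, which encodes fetuin-B, had log2 values of -3.47 and -4.79, -2.27 and -1.53, and -3.65 and -2.96. It rose by 2.23 (limma adjusted p = 0.0477), and the call was made in 12 of 18 settings. Rarres1 rose by 2.10 (4.30-fold, limma adjusted p = 0.0319), also in 12 of 18 settings. Hrg, a histidine-rich plasma glycoprotein with cystatin domains, differed by 0.15 (limma adjusted p = 0.955), and Lxn, which encodes the carboxypeptidase inhibitor latexin, by -0.07 (limma adjusted p = 0.983).

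Against differentiated PMOs, 16 of the 17 genes had a lower mean with cabozantinib, with a median log2 difference of -1.56, and 2 of them (Ahsg, and Kng2 with the limit given above) passed the test, beside 2.03% of all genes. Of all genes tested, 64.0% had a lower mean, with a median of -0.21. Cstdc1, Cstdc5, Cst11, Cstl1 and Kng2 were not well above background on either cabozantinib array, so their differences rest in part on signals at background. Cst11 and Kng2 would not have been tested without the differentiated arrays. The median of the 17 was -0.95 with quantile normalization, and none passed, whereas 9 passed without the replicate number in the model. Cst8, known from testis and epididymis, Cst10, known from cartilage, and Cst13 were among the 16, with log2 differences of -1.54, -1.51 and -1.56 (limma adjusted p = 0.105, 0.118 and 0.109). The share of spots well above background was also lower on the cabozantinib arrays, and its part in these differences was not tested.

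**Figure D3:**
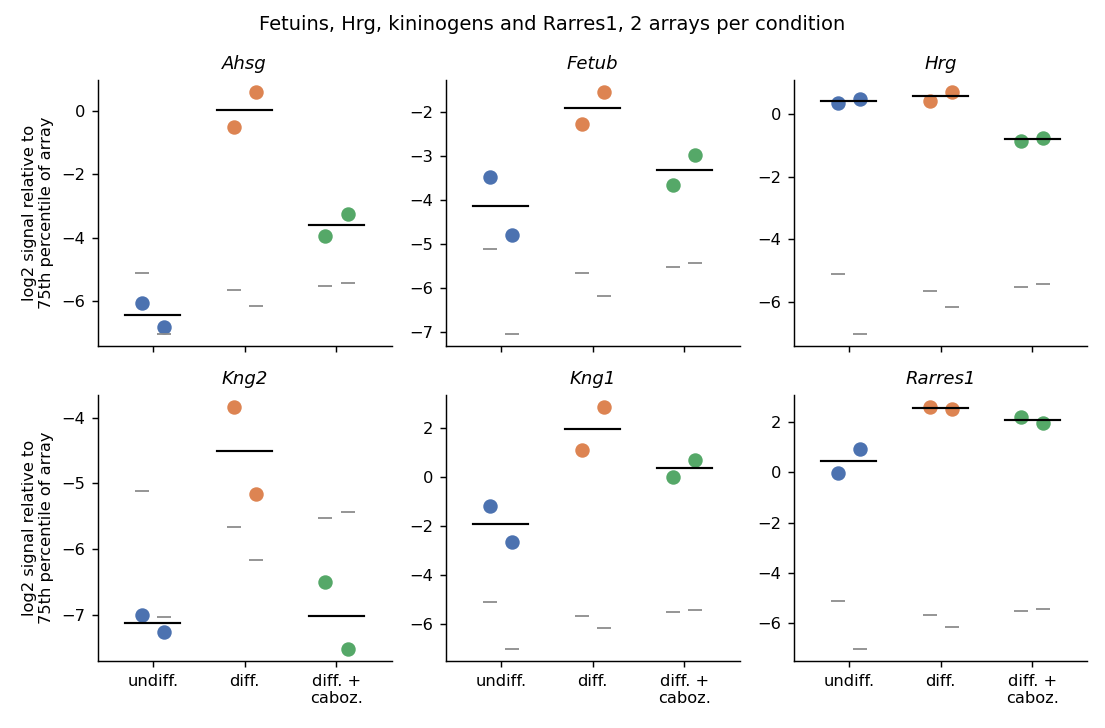
Log2 signal relative to the 75th percentile of each array (vertical axis, own scale in each panel) of 6 genes with cystatin-like domains. Points are the 2 arrays of a condition, black bars their mean, and grey ticks the lowest signal well above background on each array. Ahsg is highest in differentiated PMOs at -0.52 and 0.61, lower with cabozantinib at -3.95 and -3.25, and not above background in undifferentiated PMOs.

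The proteases that cystatins can inhibit were well above background on all 6 arrays in 11 of 11 cases. With differentiation 2 of the 11 rose and none fell, beside 6.31% and 4.36% of all genes. Ctss, which encodes cathepsin S of antigen-presenting cells, had log2 values of 4.94 and 4.81 in undifferentiated, 7.34 and 7.98 in differentiated, and 7.35 and 7.84 in cabozantinib PMOs. It rose by 2.79 (6.91-fold, SE = 0.50, limma adjusted p = 0.00690). Lgmn, which encodes legumain, the protease inhibited by Cst6, had log2 values of 4.88 and 4.60, 6.80 and 7.22, and 6.74 and 7.03, and rose by 2.27 (4.82-fold, SE = 0.49, limma adjusted p = 0.0175). For both genes the undifferentiated arrays were below the other 4, which overlapped.

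Ctsk, the collagen-degrading cathepsin K of osteoclasts, differed by 1.49 (limma adjusted p = 0.119), and Ctsc, the target of Cst7, by 1.99 (limma adjusted p = 0.0673). The difference was 1.56 for Ctsh (limma adjusted p = 0.0838) and -1.34 for Ctsf (limma adjusted p = 0.149). The median log2 difference of the 11 was 1.12 beside 0.12 over all genes. The number of proteases that passed was 5 without the replicate number in the model and 7 when the undifferentiated arrays swapped their numbers. It was 6 without undifferentiated replicate 1, 1 without differentiated replicate 1 and 0 without differentiated replicate 2.

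With cabozantinib none of the 11 proteases passed limma, beside 2.18% of all genes. An unadjusted p under 0.05 was reached by 0 of the 11, beside 3158 of all 16132 genes. The median log2 difference from differentiated PMOs was -0.07. For Ctsk it was -0.17 (SE = 0.52), and for Ctss -0.07 (SE = 0.50), with an interval of -1.18 to 1.05.

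**Figure D4:**
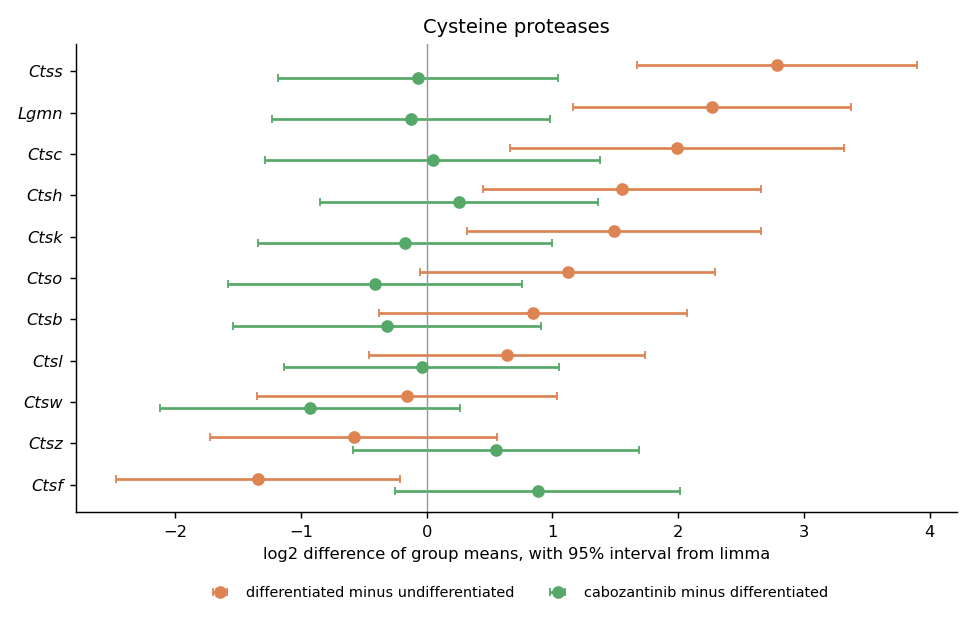
Log2 difference of group means (horizontal axis) for 11 cysteine proteases (vertical axis), with bars for the 95% interval from limma. Orange points compare differentiated with undifferentiated PMOs and green points cabozantinib with differentiated PMOs. Ctss at 2.79 and Lgmn at 2.27 passed an adjusted p of 0.05, and the green intervals all include 0.

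Inhibitors of other protease classes gave 13 tested genes of 15. With differentiation Serping1, the complement C1 inhibitor, rose by 2.77 (limma adjusted p = 0.00602) and Slpi, an inhibitor of leukocyte serine proteases, by 2.42 (limma adjusted p = 0.0141). Of all genes, 6.31% passed upward. A dimmer probe of Serping1 did not follow, with a log2 difference of 0.65 (limma adjusted p = 0.651). Of the 13, 8 had a lower mean in differentiated PMOs, with a median log2 difference of -0.29. None of the 13 passed with cabozantinib, where 3 had an unadjusted p under 0.05, beside 3158 of all 16132 genes.

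Markers of other cell types were measured beside the stefins, because neutrophils, keratinocytes and other cells express them. Of 13 neutrophil markers tested, 4 fell with differentiation and none rose, beside 4.36% and 6.31% of all genes. S100a9 and Ltf of the 4 entered only through the undifferentiated arrays, so the filter set their direction and their calls support nothing. S100a9, a subunit of calprotectin, had log2 values of 2.90 and 1.70 in undifferentiated, -7.23 and -7.12 in differentiated, and -7.74 and -7.14 in cabozantinib PMOs, and fell by at least 296-fold (limma adjusted p = 0.000121). Its partner S100a8 fell by 2.66 (limma adjusted p = 0.00820), the neutrophil collagenase Mmp8 by 2.94 (limma adjusted p = 0.00472), and lactoferrin (Ltf) by at least 3.25-fold (limma adjusted p = 0.00334). Of the 13, 9 had a lower mean in differentiated PMOs and 4 a higher one, with a median log2 difference of -0.65. The difference was -1.79 for Chil3 (limma adjusted p = 0.0609), -1.08 for Mpo, -0.65 for Camp and -0.51 for Csf3r, but 0.22 for Elane and 1.85 for Lcn2 (limma adjusted p = 0.0951). Ngp, Retnlg and Cxcr2 were not well above background on any array.

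The summed signal of the 16 neutrophil markers, in percent of the 75th percentile, was 1247 to 2108 in undifferentiated, 1055 to 1693 in differentiated, and 593.8 to 721 in cabozantinib PMOs. In this sum S100a9 went from 325.1 and 746.5 in undifferentiated to below 1 in differentiated PMOs, while Lcn2 was at 118.8 and 264.2 in the former and 443.6 and 919.1 in the latter. For 10 keratinocyte markers the summed signal was 266.4 to 442.7, 275.2 to 374.7 and 199.6 to 234.4. Of the 7 tested, Sbsn fell by 3.03 (limma adjusted p = 0.00742) and Trp63 rose by 2.41 (limma adjusted p = 0.0248). Of all genes 4.36% fell and 6.31% rose, and the median log2 difference of the 7 was -0.10. For 9 mast cell and basophil markers the summed signal was 48.5 to 76.6, 53.7 to 55.2 and 30.9 to 37.5. Of the 5 tested, the basophil protease Mcpt8 fell by at least 7.89-fold (limma adjusted p = 0.000568), beside the same 4.36% of all genes. Of 8 cytotoxic lymphocyte markers tested, Gzmb fell by 1.94 (limma adjusted p = 0.0407), again beside 4.36% of all genes. The call of Gzmb was made in 7 of 17 settings and lost with quantile normalization. Mcpt8 passed the background requirement only through the undifferentiated arrays, as S100a9, Ltf and Stfa1 did, so its call supports nothing either. The part of these cell types in the loss of the stefins was not tested.

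Most macrophage markers moved in the other direction. Of 13 tested, 7 rose with differentiation and none fell, beside 6.31% and 4.36% of all genes, with a median log2 difference of 2.84 beside 0.12 over all genes. Mrc1, the mannose receptor, rose by 5.31 (limma adjusted p = 0.000488) and Adgre1, the F4/80 antigen, by 4.04 (limma adjusted p = 0.00125). Of the 13, 12 had a higher mean in differentiated PMOs and 1, Lyz2, a lower one. Its log2 values were -3.64 and -1.15 in undifferentiated and -3.85 and -3.50 in differentiated PMOs. Cd163 and C1qa were well above background on 0 arrays and were not tested. The summed signal of 15 macrophage markers was 3919 to 6622 in undifferentiated, 39040 to 50010 in differentiated and 34940 to 42340 in cabozantinib PMOs. Beside the same 6.31% of all genes, 3 of 10 osteoclast markers rose (Acp5, Dcstamp and Atp6v0d2), and 5 of 13 osteoblast markers, among them Bglap2 (osteocalcin) by 5.06 (limma adjusted p = 0.000474), while Spp1 fell by 3.67 (limma adjusted p = 0.0316), a call made in 11 of 18 settings and lost with quantile normalization or without the replicate number (adjusted p = 0.0546). Of the 13 osteoblast markers, 8 had a higher mean in differentiated PMOs and 5 a lower one. Beside Spp1, the lower ones were Runx2, Sp7, Sost and Pth1r, which did not pass. Mean log2 values in undifferentiated and differentiated PMOs were -4.87 and -6.79 for Runx2, -3.52 and -5.36 for Sp7, and 2.03 and 0.60 for Pth1r. The medians of the osteoclast and osteoblast lists were 0.29 and 0.26, beside 0.12 over all genes. Most macrophage markers moved with Cst3, Ctss and Lgmn, and their part in those differences was not tested. With cabozantinib no gene of the 7 marker lists passed limma. Per list, 0 to 5 genes had an unadjusted p under 0.05, beside 3158 of all 16132 genes.

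Genes with the pattern nearest to a stefin or cystatin were ranked by the root mean square difference of log2 values, each gene centered on its own mean over the 6 arrays. Nearest to Stfa1 were S100a9 (0.47), Cstdc5 (0.86), Serpinb2 (1.13), Dynap (1.15) and Pitx1 (1.45). Serpinb2 is the plasminogen activator inhibitor PAI-2 and Pitx1 a homeobox transcription factor. Nearest to Cstdc4 were Serpinb2 (0.33), Pitx1 (0.67), the BMP receptor gene Bmpr1b (0.71), the platelet chemokine gene Ppbp (0.81) and Prl (0.85), which encodes prolactin. All of these were high on both undifferentiated arrays and low on the other 4, so the ranking rests on 1 step between 2 and 4 arrays.

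Nearest to Cst3 were Tmem86a (0.09), the lysine methyltransferase gene Setd7 (0.10), the long noncoding RNA Snhg18 (0.12), Dcaf12l1 (0.12) and Kctd1 (0.12), which were low on the undifferentiated arrays. With quantile normalization 5 of the 5 genes nearest to Stfa1 and 4 of the 5 nearest to Cstdc4 remained, but 0 of the 5 nearest to Cst3. By Pearson correlation in place of the difference, 1, 0 and 0 remained.

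**Figure D5:**
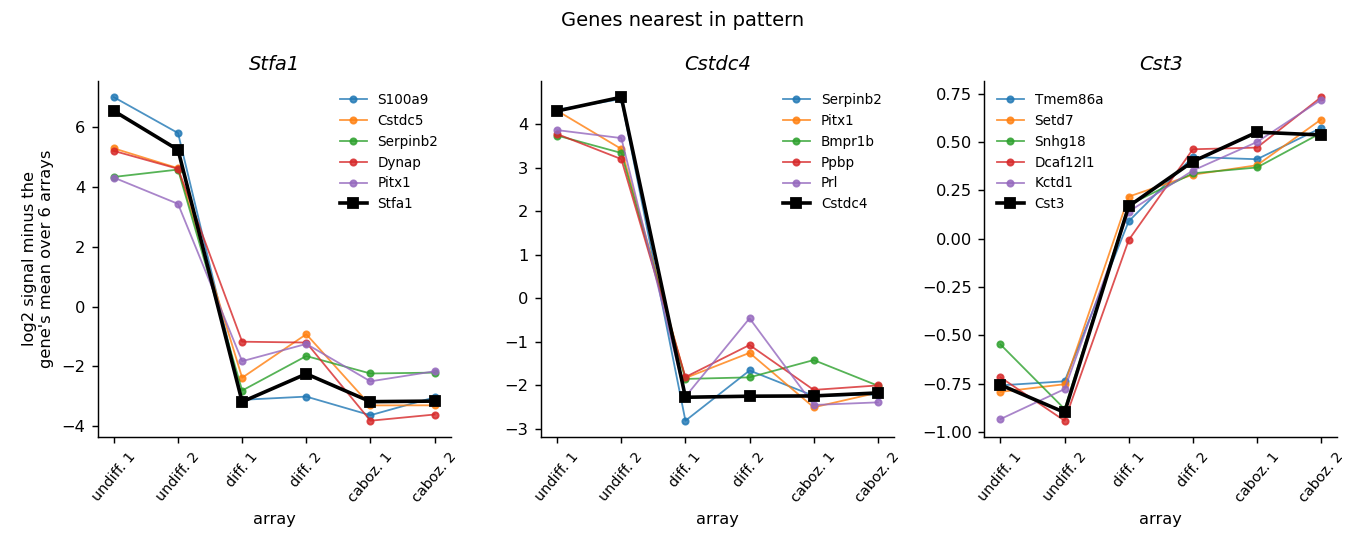
Log2 signal minus the gene's mean over the 6 arrays (vertical axis) on each array (horizontal axis) for Stfa1, Cstdc4 and Cst3 in black and the 5 genes nearest to each in color. Lines join the arrays of a gene for reading only. The genes near Stfa1 and Cstdc4 share the step from the 2 undifferentiated arrays to the other 4, and S100a9 is nearest to Stfa1 at 0.47.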

How the data were processed

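RNA from 6 PMO samples, 2 per condition, was labeled with Cy3 and hybridized to 1-color Agilent whole mouse genome arrays. Per the file headers, Feature Extraction 11.0.1.1 gave the deposited scanner intensities, background-subtracted and detrended, for 43020 spots per array, and the probes are annotated on mm9. The authors also deposited log2 values of 30439 probes. Their medians were 7.50 to 7.51 on every array and they followed the log2 scanner signal at r of 0.998 or more, but the steps that made them are not given in the sources used here.

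Spots called outliers were removed, replicate spots were averaged per probe, and the log2 signal was taken relative to the 75th percentile of each array. Probes were named through their RefSeq accessions (GRCm38.p6), which gave a gene to 69.1% of 39429 probes. A gene was read at its brightest probe. The 27239 probes that the software called well above background on 2 or more arrays were fitted with limma 3.58.1 in R 4.3.3, with condition and replicate number as terms and Benjamini-Hochberg adjustment over all of them. The replicate number was included because the study's statistics section names a paired test. However, arrays with the same number did not deviate together throughout. Replicate differences correlated at -0.51 (undifferentiated and differentiated), -0.53 (undifferentiated and cabozantinib) and 0.27 (differentiated and cabozantinib). Whether the numbers are crossed or unrelated to a pairing is not known. The model left 2 residual degrees of freedom and pooling added 7.7.

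The genes named are all 9 stefins and cystatins, genes of fixed lists, and the 5 genes nearest in pattern to Stfa1, Cstdc4 and Cst3. A result for 1 listed gene is not reported here. The members and lists were chosen with earlier results of these data known. Alternatives were quantile normalization, the authors' values, normexp, other filters, models, probe summaries and tests, and each array left out in turn. The functions were tested on simulated data. Tables, alignments and plots were made with version 1.17.8 of data.table, Python 3.11.15, pandas 2.3.3, Biopython 1.88 and matplotlib 3.10.9. The number of arrays limits the precision.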

Additional observations from a re-analysis of the deposited data

How the results depend on the processing

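The number of the 9 stefins and cystatins that passed in cabozantinib against differentiated PMOs, 0 with the replicate block, was 1 with no replicate block, 1 with only the 4 arrays compared (with or without the block), and 0 to 1 when each array was left out. Stfa2l1 was the gene with an adjusted p under 0.05 in these settings, as low as 0.0124 over all settings, at signals near background. For the proteases in differentiated against undifferentiated PMOs, 2 passed with the block, against 5 with no replicate block, 1 with no filter on dim probes, 0 by the paired test of the methods and 0 by an unpaired test (which each passed 0 of all genes), and 0 to 6 when each array was left out.

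The number of the 9 with a lower mean than in undifferentiated PMOs was 8 for differentiated and 8 for cabozantinib PMOs. When a probe had to be well above background on every one of the 6 arrays it was 3 and 3, since 4 of the 9 genes were then read, and leaving out each array gave 6 to 8 and 7 to 8. Further alternatives were added after the data were seen. Normexp was run on the median signals, since the files have no mean signal column, and gave 7 and 7 for these counts in place of 8 and 8. Exchanging the numbers of the undifferentiated arrays in the block gave 2 of the 9 genes and 1 protease in cabozantinib against differentiated PMOs, and 7 proteases in differentiated against undifferentiated PMOs.

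Over all genes, the count for cabozantinib against differentiated PMOs was 351 with the block, 1698 without it, 4253 with the exchanged numbers, 2 when a probe had to be well above background on every array, 1 when the probes of a gene were averaged, and 0 with quantile normalization, normexp, the authors' values or no filter. For differentiated against undifferentiated PMOs it was 1721 with the block, 2382 without it, 489 with normexp, 1041 with no filter and 4644 with the exchanged numbers. The cause of these changes was not tested. A block for the scan could not be fitted, because the cabozantinib arrays are alone in theirs, and protein identity between the genes was not run. In dim probes, signal over background limits what can be seen.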
